A study of Fragaria vesca with 24 samples.

Results

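A set of 150 genes of the woodland strawberry Fragaria vesca had more transcript after cold treatment than before it in all 4 combinations of genotype and tissue that were sampled, and these shared cold-induced genes are described here across the libraries of the study. They were 150 of the 34006 genes in the deposited gene table. For each gene, the mean of log2(CPM + 0.5) was taken in each group, where CPM is the gene's count divided by the library's total and scaled to a total of 1e+06, and the value at 0 h was subtracted from the value at 42 d in ‘Alta’ crowns, ‘NCGR1363’ crowns, ‘Alta’ leaves and ‘NCGR1363’ leaves. The members were the 150 genes for which the smallest of these 4 changes was largest, among 11326 genes with a mean CPM of at least 5 in all 4 groups at 42 d. The members were thus selected on the cold response itself, which is given as a description, with no test on the members.

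‘Alta’ is a freezing-tolerant accession from the north of Norway and ‘NCGR1363’ a susceptible accession collected in South America. Runner-grown clonal plants of each were raised for 5 weeks at 20 °C with an 18 h photoperiod and sampled untreated (0 h) or after 42 d at 2 °C, as crowns or as leaves, with 3 biological replicates in each of 8 groups and 24 RNASeq libraries. The groups were wild accessions with no transgene, and each genotype stands for 1 accession. The 42 d plants were also older and, by the study's acclimation conditions, grew in shorter days, so that cold, age and daylength cannot be told apart. Library totals ran from 12818719 to 18487934 counts.

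Cold acclimation is the slow gain of freezing tolerance that temperate plants make at low temperatures above freezing. It is known from Arabidopsis to run in part through the CBF transcription factors, which switch on protective proteins such as dehydrins, enzymes of soluble sugar synthesis and proteins that alter membranes. The crown is the short, compressed stem of the strawberry plant that carries the growing points and survives the winter, whereas leaves are shed and replaced.

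The library labelled ‘Alta’ crown 42 d replicate 3 stood apart and was left out of the rule and of the fits below. Counts of calls per comparison, medians of the genotype and tissue differences and the order of groups are also given with it. Other values are given only without it. Among these are the sizes of the cold changes, the counts of larger or non-overlapping changes and the opposite separations. The counts of the same tissue sign and of tissue calls shared between genotypes are also among these. The 150 genes took 0.267% of its counts (95% Wilson interval 0.265 to 0.270%, counting error only), against 7.60 and 7.62% in the other ‘Alta’ crown libraries at 42 d. It lay below both of those libraries for 140 of the 150 genes and below the whole range of ‘Alta’ leaves at 42 d for all 150. Pearson's r of log2(CPM + 0.5) was taken across the 11326 genes that passed the minimum at 42 d, which are not independent replicates. For the left-out library it ranged from 0.974 to 0.986 with untreated ‘Alta’ leaves, and it was 0.463 and 0.50 with the cold-treated ‘Alta’ crowns. Within the other groups the r between replicates was 0.873 or higher, with the lowest value in ‘NCGR1363’ leaves at 42 d. With the library included, 85 of the 150 genes would have been chosen again. No leaf marker gene could be matched to a name, and the 9 genes taken as crown markers (laccases and cellulose synthases, which act in cell wall formation) did not mark crowns, since of 7 tested 2 were lower and 3 higher in leaves than in crowns of ‘Alta’ at 0 h, and 2 and 4 in ‘NCGR1363’, so the tissue labels were not checked on markers. Of these 7, 0 were higher and 5 lower at 42 d in ‘Alta’ crowns (0 and 0 with the left-out library), 0 and 2 in ‘NCGR1363’ crowns, 2 and 4 in ‘Alta’ leaves and 1 and 1 in ‘NCGR1363’ leaves, and their part in the values below was not tested.

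The genes as a group moved from a minor to a sizeable part of the transcript pool. In ‘Alta’ crowns their share of all counts was 0.605, 0.719 and 0.677% in the 3 libraries at 0 h and 7.60 and 7.62% in the 2 libraries at 42 d. In ‘Alta’ leaves the share was 0.308, 0.289 and 0.292% at 0 h and 4.81, 5.58 and 4.79% at 42 d. With the left-out library set aside, both tissues of ‘Alta’ thus had every cold-treated library well above every untreated one. The group means differed by 11.4-fold in crowns and 17.1-fold in leaves. In ‘NCGR1363’ crowns the share was 0.276, 0.2998 and 0.283% at 0 h and 1.90, 2.20 and 1.82% at 42 d. In ‘NCGR1363’ leaves it was 0.292, 0.326 and 0.324% at 0 h and 1.49, 2.58 and 1.84% at 42 d. The gain was 6.88-fold in crowns and 6.28-fold in leaves of ‘NCGR1363’, and no ‘NCGR1363’ library at 42 d reached the lowest ‘Alta’ library at 42 d in the same tissue, when the left-out library is set aside. At 0 h the members already took 0.667 ± 0.057% (SD, n = 3) of the counts in ‘Alta’ crowns, against means of 0.286 to 0.314% in the other 3 groups. Counting error was at most 0.0139 percentage points either way (95% Wilson). Without the 20 members with the most reads at 42 d, the gains were 4.71-fold and 6.89-fold in crowns and leaves of ‘Alta’ and 3.79-fold and 4.13-fold in those of ‘NCGR1363’. Because the genes were chosen for higher values at 42 d, these gains carry no test.

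**Figure D1:**
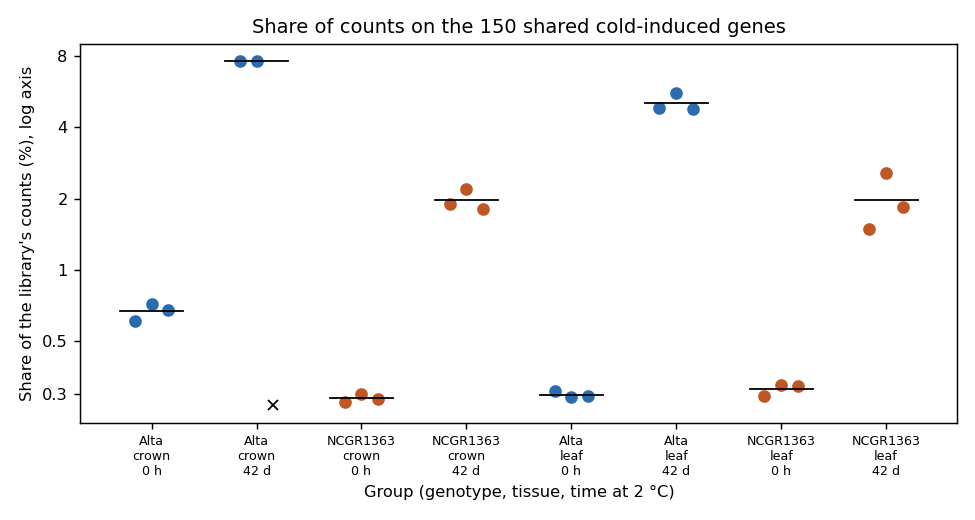
Share of each library's counts on the 150 shared cold-induced genes (percent, log axis), by group of genotype, tissue and time. Circles are libraries, blue for ‘Alta’ and orange for ‘NCGR1363’, lines are group means, and the cross is the left-out library labelled ‘Alta’ crown 42 d replicate 3, which at 0.267% lies just below the untreated leaves (0.289 to 0.326%) and far from the 2 other libraries of its group at 7.60 and 7.62%.

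The size of the response varied widely among the members. The median log2 change was 1.88 in ‘Alta’ crowns, 1.83 in ‘NCGR1363’ crowns, 2.69 in ‘Alta’ leaves and 1.98 in ‘NCGR1363’ leaves, whereas over the 11326 genes that passed the minimum it was -0.02, 0.04, 0.44 and 0.25. The smallest change of a member was at least 2 on the log2 scale for 29 genes, at least 3 for 13, at least 4 for 7 and at least 5 for 2. The last 3 genes inside the threshold had smallest changes of 1.1017, 1.1013 and 1.094, and the first 3 outside it had 1.0922, 1.0892 and 1.0843, so the edge of the set is not a gap in the data. The response was weakest in leaves of ‘NCGR1363’ for 58 members, in its crowns for 49, in ‘Alta’ crowns for 34 and in ‘Alta’ leaves for 9. It was strongest in ‘Alta’ leaves for 77, where the median change over the genes passing the minimum was also largest. Shares over all genes are not given for these counts, so nothing particular to the members is read from them. A larger change in leaves than in crowns was seen for 103 members in ‘Alta’ and 77 in ‘NCGR1363’, where 78.9 and 66.7% of the genes passing the minimum had it. The order also depends on scaling, since column totals in place of TMM moved the median change over all genes by 0.36 in ‘Alta’ leaves. A larger change in ‘Alta’ than in ‘NCGR1363’ was seen for 96 members in crowns and 117 in leaves, where the shares over all genes passing the minimum were 45.7 and 60.5%. In ‘Alta’ crowns the 42 d libraries lay wholly above the 0 h libraries for 149 members, in ‘NCGR1363’ crowns for 149, in ‘Alta’ leaves for 150 and in ‘NCGR1363’ leaves for 145, where 35.4, 37.6, 57.3 and 39.8% of the genes passing the minimum did so. In the edgeR fits, 150 members were called higher at 42 d in ‘Alta’ crowns, 149 in ‘NCGR1363’ crowns, 150 in ‘Alta’ leaves and 130 in ‘NCGR1363’ leaves, where 27.7, 29.1, 27.4 and 17.0% of all genes tested were called higher, 30.0, 29.8, 28.4 and 14.3% lower, and 57.7, 58.9, 55.9 and 31.4% in either direction. These contrasts chose the genes, so nothing is read from either set of counts. With the left-out library included, 26 members were called in ‘Alta’ crowns. The share over all genes is not given for that fit, and nothing particular to the members is read from the drop.

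**Figure D2:**
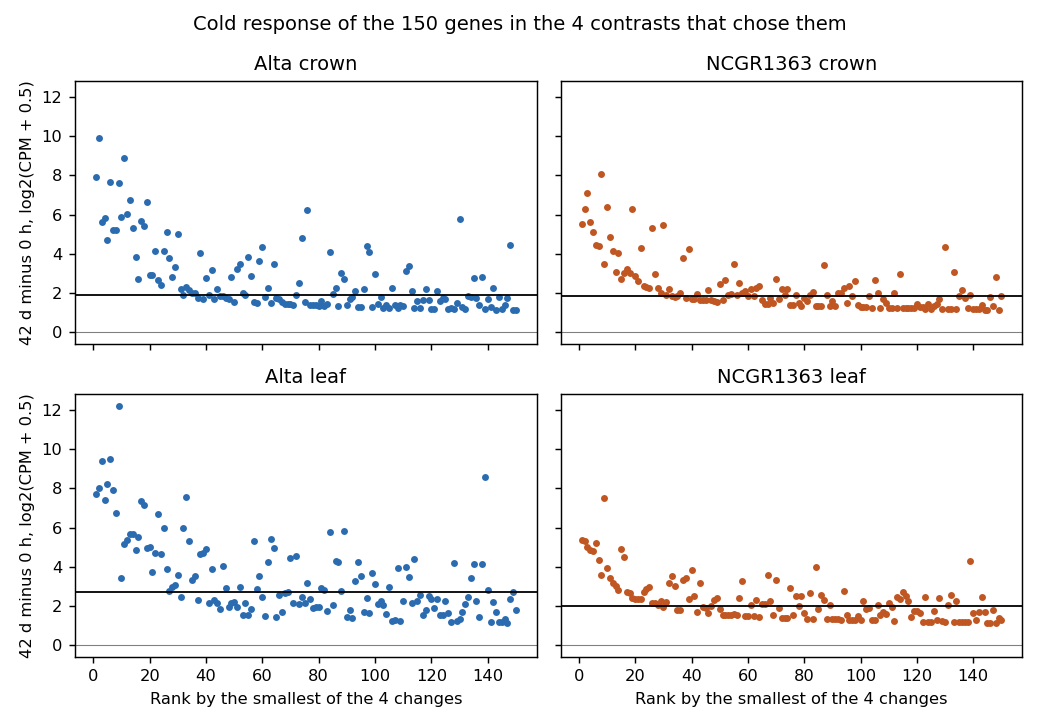
Change from 0 h to 42 d, in log2(CPM + 0.5), of the 150 genes in each of the 4 contrasts, ordered by the smallest of the 4 changes. Each point is a gene, black lines are the medians (1.88, 1.83, 2.69 and 1.98) and the grey line is 0, and all points lie above 0 in each panel, as the rule fixes.

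The gene table names no function for the IDs, and the RefSeq gene table matched 0 of them, so a description was at hand only for members among the annotated genes of the freezing tolerance QTL interval on chromosome 2. There were 3 such members, 2.00% of the set, where 2.73% of all genes passing the minimum lay in the interval. They were FvH4_2g14760 (alcohol dehydrogenase, 1143 coding bases), FvH4_2g18090 (uncharacterized protein LOC101303288, 930 coding bases) and FvH4_2g12900 (uncharacterized protein LOC101306395, 1518 coding bases). In addition, the member with the largest smallest change, FvH4_6g53741, and the member with the most reads at 42 d, FvH4_1g12582, are given by ID, and all other members by counts and ranks. For single genes the values below are CPM scaled with TMM factors over the 24 libraries, and levels are compared between groups, not between genes. The log2 differences come from edgeR's quasi-likelihood F-test with SE, and the FDR is the Benjamini-Hochberg adjusted p over all genes tested in that comparison. In bulk tissue, more cells with a transcript and more transcript per cell cannot be told apart.

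FvH4_2g14760 encodes an alcohol dehydrogenase, the enzyme that turns acetaldehyde into ethanol in fermentation and whose transcripts accumulate under cold and low oxygen in Arabidopsis. In crowns of ‘Alta’ it had 88.5, 67.7 and 60.1 CPM at 0 h and 1976 and 959 CPM at 42 d, and the left-out library had 7.63 CPM. In crowns of ‘NCGR1363’ it had 226, 161 and 158 CPM at 0 h and 492, 398 and 485 CPM at 42 d. The order of the genotypes in crowns differed between the times, with ‘NCGR1363’ above ‘Alta’ at 0 h and below it at 42 d, and the libraries of the genotypes did not overlap at either time when the left-out library is set aside. The difference between the times was itself not tested. The genotype difference (‘NCGR1363’ minus ‘Alta’) was 1.32 ± 0.16 on the log2 scale at 0 h (edgeR FDR = 4.82e-05) and -1.69 ± 0.31 at 42 d (edgeR FDR = 0.00514), and with the left-out library the latter was -1.11 (edgeR FDR = 0.674). In leaves it had 7.45, 6.80 and 7.23 CPM in ‘Alta’ and 4.16, 4.66 and 3.10 CPM in ‘NCGR1363’ at 0 h. At 42 d the leaves had 439, 266 and 330.4 CPM in ‘Alta’ and 58.0, 77.9 and 53.5 CPM in ‘NCGR1363’. Leaves of ‘NCGR1363’ were therefore lower at both times, by a log2 difference of -0.84 ± 0.22 at 0 h (edgeR FDR = 0.038) and -2.50 ± 0.23 at 42 d (edgeR FDR = 0.00291). The call at 0 h was lost without ‘Alta’ replicate 1, 2 or 3 or ‘NCGR1363’ replicate 2 or 3 (edgeR FDR of 0.0699 to 0.124) and on column totals (edgeR FDR = 0.0529). The transcript was lower in leaves than in crowns in both genotypes and at both times, with log2 differences of -3.25 ± 0.16 and -2.09 ± 0.36 in ‘Alta’ and -5.43 ± 0.22 and -2.84 ± 0.18 in ‘NCGR1363’ at 0 h and 42 d (edgeR FDR of 1.48e-07, 0.0038, 8.37e-07 and 4.53e-05), although in ‘Alta’ at 42 d it was -1.52 with the left-out library (edgeR FDR = 0.64). The rule took its cold response on column totals, and the values here are from the edgeR fits, as a description with no test. The log2 changes were 4.36 ± 0.35 in ‘Alta’ crowns, 5.59 ± 0.22 in ‘Alta’ leaves, 1.34 ± 0.14 in ‘NCGR1363’ crowns and 3.99 ± 0.22 in ‘NCGR1363’ leaves. Alcohol dehydrogenases form a family with similar sequences, so reads that fit more than 1 member were assigned by estimate.

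FvH4_2g18090, a protein with no described function, had its highest values in ‘Alta’ crowns at both times, the left-out library set aside. It had 10.5, 11.7 and 10.8 CPM there at 0 h, and 4.17, 5.31 and 3.65 CPM in ‘NCGR1363’ crowns. At 42 d it had 107 and 183 CPM in ‘Alta’ crowns, with 3.11 CPM in the left-out library, and 24.2, 46.3 and 23.5 CPM in ‘NCGR1363’ crowns. Crowns of ‘NCGR1363’ were lower at both times with no overlap, by -1.34 ± 0.15 at 0 h (edgeR FDR = 2.32e-05) and -2.22 ± 0.35 at 42 d (edgeR FDR = 0.00278), the latter becoming -1.65 with the left-out library (edgeR FDR = 0.441). In leaves it had 4.84, 4.10 and 3.88 CPM in ‘Alta’ and 5.59, 8.77 and 9.29 CPM in ‘NCGR1363’ at 0 h, and 22.3, 39.7 and 28.8 CPM against 17.1, 26.6 and 17.7 CPM at 42 d. The leaf difference was 0.88 ± 0.24 at 0 h (edgeR FDR = 0.0434), a call that was lost without ‘Alta’ replicate 1, 2 or 3 or ‘NCGR1363’ replicate 2 or 3 (edgeR FDR of 0.0663 to 0.145), and -0.62 ± 0.26 at 42 d, which did not pass the test (edgeR FDR = 0.158). Leaves were below crowns in ‘Alta’ at 0 h and at 42 d (log2 differences of -1.28 ± 0.15, edgeR FDR = 5.47e-05, and -2.26 ± 0.31, edgeR FDR = 0.00151, or -1.69 with the left-out library, edgeR FDR = 0.502). In ‘NCGR1363’ the leaves were above the crowns at 0 h by 0.91 ± 0.25 (edgeR FDR = 0.0136), but by 0.28 on column totals, which did not pass the test (edgeR FDR = 0.299), and the call was lost without crown replicate 1 or 3 (edgeR FDR of 0.0534 and 0.054). At 42 d the difference in ‘NCGR1363’ was -0.60 ± 0.32 (edgeR FDR = 0.154). It passed the test with the replicate number as a block (-0.55, edgeR FDR = 0.0346), on column totals (-0.95, edgeR FDR = 0.0284) and without leaf replicate 2 (-0.80, edgeR FDR = 0.0478).

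FvH4_2g12900, also without a described function, had more transcript in leaves than in crowns. At 0 h it had 50.4, 64.5 and 51.1 CPM in leaves of ‘Alta’ and 34.6, 45.5 and 53.5 CPM in leaves of ‘NCGR1363’, and crowns had between 6.22 and 7.76 CPM in the 6 libraries. At 42 d it had 132, 114 and 109 CPM in leaves of ‘Alta’ and 163, 168 and 154 CPM in leaves of ‘NCGR1363’. Crowns at 42 d had 28.9 and 27.9 CPM in ‘Alta’, with 48.2 CPM in the left-out library, and 20.1, 22.7 and 19.6 CPM in ‘NCGR1363’. Leaves were above crowns in all 4 comparisons without overlap, by log2 differences of 3.01 ± 0.12 and 2.06 ± 0.17 in ‘Alta’ and 2.88 ± 0.16 and 2.98 ± 0.11 in ‘NCGR1363’ at 0 h and 42 d (edgeR FDR of 4.38e-08, 0.00015, 4.62e-06 and 9.72e-06), and in ‘Alta’ at 42 d by 1.75 with the left-out library (edgeR FDR = 0.102). Between the untreated genotypes the log2 difference was -0.21 ± 0.12 for crowns and -0.31 ± 0.17 for leaves (edgeR FDR of 0.149 and 0.241), and at 42 d it was -0.46 ± 0.12 for crowns (edgeR FDR = 0.0197) and 0.40 ± 0.12 for leaves (edgeR FDR = 0.0692, or 0.00968 in 1 fit of all 8 groups). The crown difference at 42 d did not pass the test on column totals (-0.30, edgeR FDR = 0.0861), without ‘NCGR1363’ replicate 1 or 3 (edgeR FDR of 0.0839 and 0.0891) or with the left-out library (-0.78, edgeR FDR = 0.183).

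FvH4_1g12582, on chromosome 1 by its ID and with 858 coding bases, had the most reads of the set at 42 d. In crowns of ‘Alta’ it had 335, 407 and 403 CPM at 0 h and 24598 and 23863 CPM at 42 d, and the left-out library had 92.1 CPM. In crowns of ‘NCGR1363’ it had 66.1, 122 and 76.1 CPM at 0 h and 4016, 5589 and 3611 CPM at 42 d. This 1 gene thus took 2.57 ± 0.018% (SD, n = 2) of all counts in cold-treated ‘Alta’ crowns and 0.519 ± 0.122% (SD, n = 3) in those of ‘NCGR1363’. Crowns of ‘NCGR1363’ were lower by a log2 difference of -2.13 ± 0.19 at 0 h (edgeR FDR = 5.91e-06) and -2.47 ± 0.38 at 42 d (edgeR FDR = 0.00256), or -1.89 at 42 d with the left-out library (edgeR FDR = 0.543). In leaves it had 112, 120.3 and 102 CPM in ‘Alta’ and 79.9, 121 and 145 CPM in ‘NCGR1363’ at 0 h, which overlapped (0.05 ± 0.19, edgeR FDR = 0.886). At 42 d leaves had 12987, 17783 and 14001 CPM in ‘Alta’ and 1772, 5003 and 2635 CPM in ‘NCGR1363’. The leaf difference at 42 d was -2.32 ± 0.46 (edgeR FDR = 0.0234), and it did not pass the test without ‘Alta’ replicate 1, 2 or 3 or ‘NCGR1363’ replicate 3 (edgeR FDR of 0.0664 to 0.153). Leaves and crowns differed in ‘Alta’ at 0 h (-1.69 ± 0.10, edgeR FDR = 4.82e-07), and the other 3 tissue differences, of -0.70 ± 0.39, 0.46 ± 0.28 and -0.48 ± 0.41, did not pass the test (edgeR FDR of 0.19, 0.181 and 0.357). The difference in ‘NCGR1363’ passed it at 0 h without crown replicate 2 or leaf replicate 1 (0.76 and 0.67, edgeR FDR of 0.0379 and 0.0128) and at 42 d without leaf replicate 2 (-0.96, edgeR FDR = 0.0175).

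FvH4_6g53741, on chromosome 6 by its ID, was close to the limit of detection before treatment. At 0 h it had counts of 9, 10 and 3 in ‘Alta’ crowns, 13, 19 and 12 in ‘NCGR1363’ crowns, 2, 0 and 0 in ‘Alta’ leaves and 7, 6 and 2 in ‘NCGR1363’ leaves. At 42 d it had 200.1 and 247 CPM in ‘Alta’ crowns and 49.0, 64.9 and 53.5 CPM in ‘NCGR1363’ crowns, and in the left-out library its count was 0. Leaves at 42 d had 112, 103 and 117 CPM in ‘Alta’ and 27.7, 44.1 and 30.97 CPM in ‘NCGR1363’. Every cold-treated library in the fits was therefore above every untreated one, and at 42 d ‘NCGR1363’ lay below ‘Alta’ in both tissues without overlap. The differences at 42 d were -2.01 ± 0.16 in crowns (edgeR FDR = 0.000268), or -1.42 with the left-out library (edgeR FDR = 0.658), and -1.75 ± 0.17 in leaves (edgeR FDR = 0.00357). Crowns at 0 h did not pass the test (0.91 ± 0.45, edgeR FDR = 0.103), and leaves at 0 h were under the filter on low counts. In untreated ‘Alta’ the crowns were called above the leaves (edgeR FDR = 0.0384), a call lost without leaf replicate 2 or 3 (edgeR FDR of 0.0991 and 0.0992), and no fold is given at such counts. In untreated ‘NCGR1363’ the tissue difference was -1.05 ± 0.46 (edgeR FDR = 0.0773), and -1.66 on column totals (edgeR FDR = 0.0124). Leaves at 42 d were below crowns by -1.02 ± 0.16 in ‘Alta’ (edgeR FDR = 0.00293), or -0.44 with the left-out library (edgeR FDR = 0.927), and by -0.69 ± 0.19 in ‘NCGR1363’ (edgeR FDR = 0.0216), a call lost without ‘NCGR1363’ crown replicate 2 or 3 or leaf replicate 1 or 3 (edgeR FDR of 0.0504 to 0.0909).

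**Figure D3:**
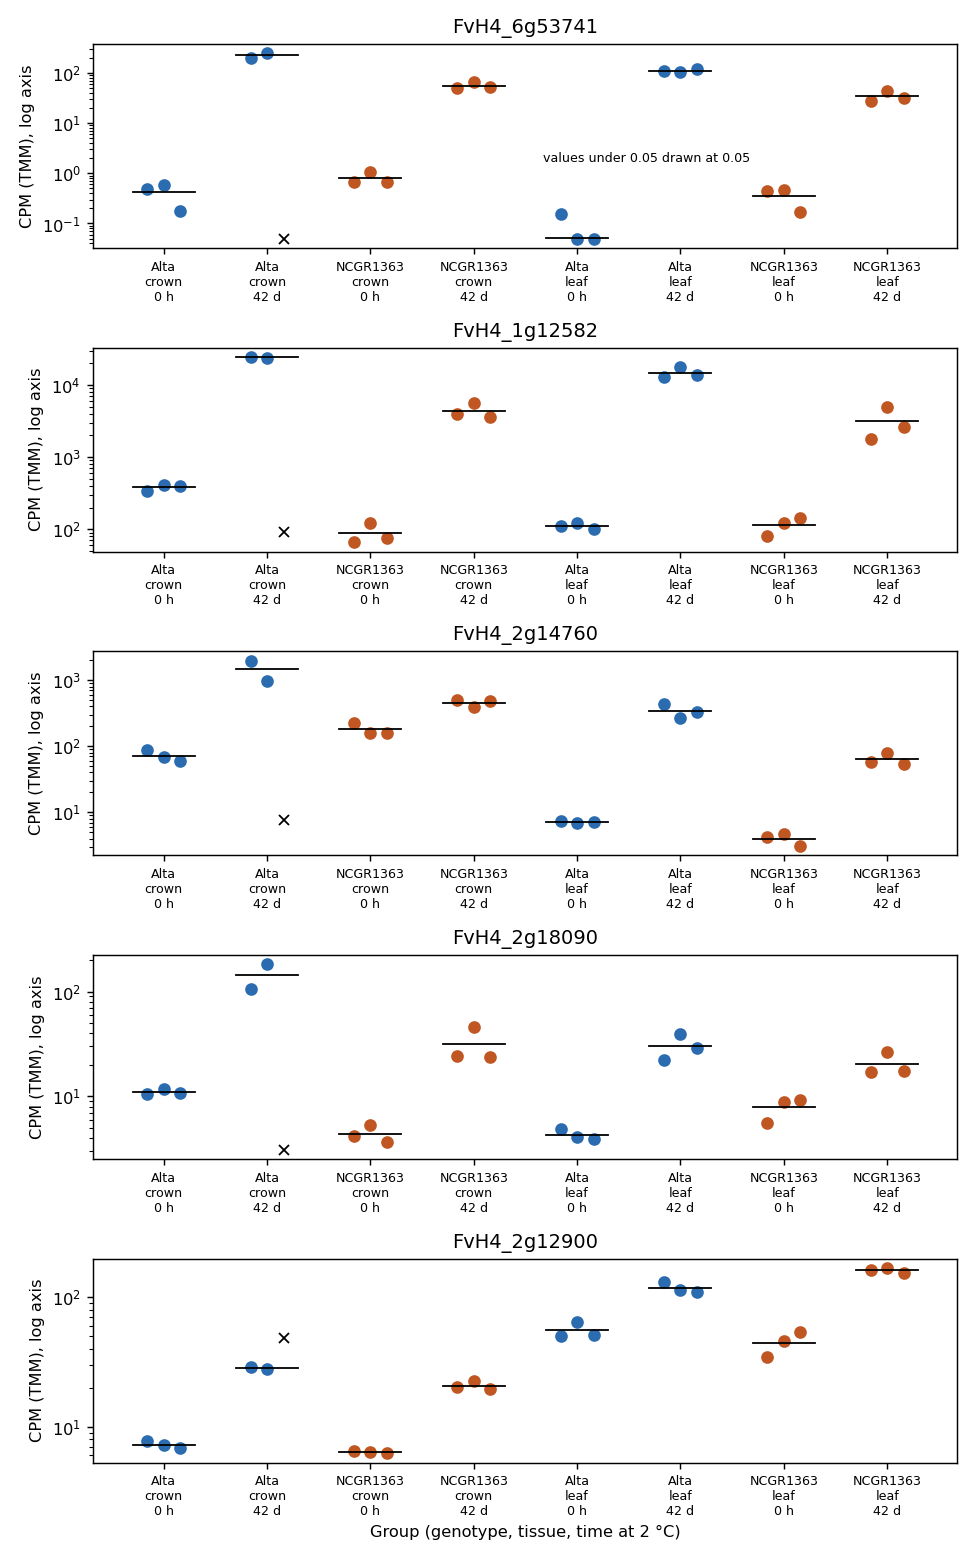
CPM (TMM-scaled, log axis) of the 5 genes given by ID in each library, by genotype, tissue and time. Circles are libraries, blue for ‘Alta’ and orange for ‘NCGR1363’, lines are group means and crosses mark the left-out library, which is lowest of the ‘Alta’ crown libraries at 42 d for 4 genes and highest for FvH4_2g12900. Values under 0.05 are drawn at 0.05.

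The genotype differences compare ‘NCGR1363’ with ‘Alta’ within a tissue and time and were not used by the rule, although they rest on the same libraries. In crowns at 42 d the shared cold-induced genes were mostly lower in ‘NCGR1363’: all 150 were tested, 113 were called lower and 3 higher, or 77.3% in either direction, where 49.9% of all 18959 genes tested were called, 23.9% lower and 25.9% higher. The median log2 difference of the members was -1.14, against 0.02 over all genes, and 83 of the 113 were lower by at least 1 on the log2 scale. The lowest called value was -4.82, of the member ranked 25, with mean CPM by column total of 244 in ‘Alta’ and 9.64 in ‘NCGR1363’. This comparison has 2 ‘Alta’ libraries, and with the left-out library included 3 members were called, all lower by at least 1, and 5.02% of all genes, with a median of -0.79 for the members and -0.12 over all genes. In crowns at 0 h, 146 members were tested and 85 were called lower and 14 higher in ‘NCGR1363’, 67.8% of those tested, where 63.2% of all genes were called, 32.2% lower and 31.1% higher. Without the filter on low counts all 150 were tested, with 85 lower and 16 higher. The median there was -0.59, against 0.00 over all genes, and called values ran from -5.84 to 1.69.

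In leaves at 0 h a smaller share of members was called than in crowns, as was the case over all genes. Of 146 members tested, 13 were called higher and 12 lower in ‘NCGR1363’, 17.1% of those tested, where 18.7% of all genes were called, 9.4% higher and 9.31% lower, and the median was 0.09 against 0.02. On column totals the split was 17 higher and 10 lower. Leaving out 1 library moved the count to 7 without ‘Alta’ replicate 2 or 3, to 59 without ‘NCGR1363’ replicate 1, and to 11 and 9 without its replicates 2 and 3. In leaves at 42 d, 41 of 150 members were called lower in ‘NCGR1363’ and 5 higher, 30.7% in all, where 15.2% of all genes were called, 7.85% lower and 7.38% higher, and the median was -0.71 against 0.00. The count of members was 23, 19 and 24 without ‘Alta’ replicates 1, 2 and 3, and 80 and 11 without ‘NCGR1363’ replicates 2 and 3, and in each of these fits more members were called lower than higher. Shares over all genes are not given for the fits without 1 library at either time, so nothing particular to the members is read from these shifts. Called values ran from -3.70 to 0.94.

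**Figure D4:**
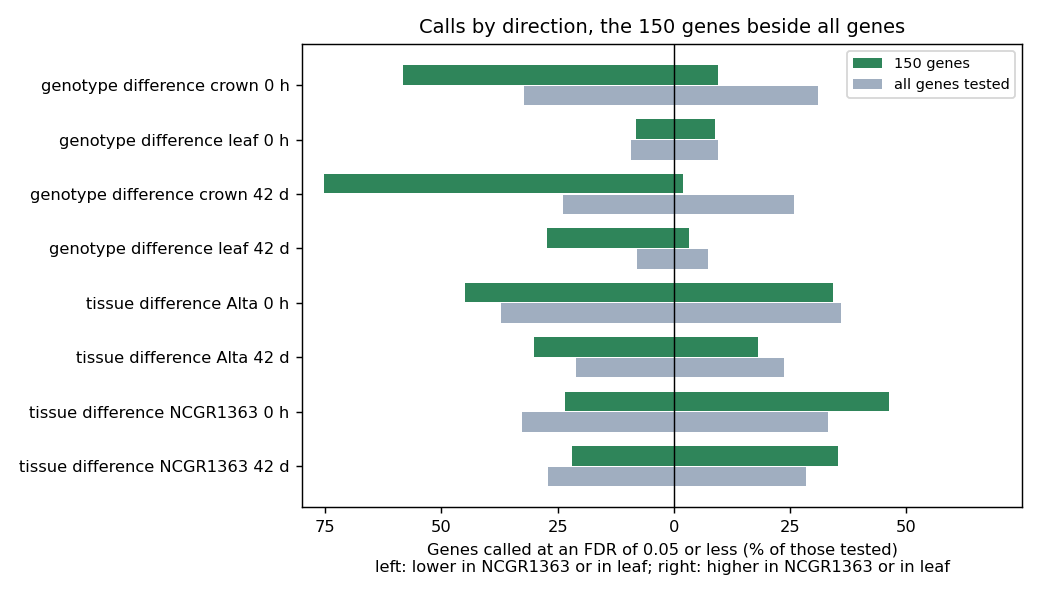
Share of genes called at an FDR of 0.05 or less in each of the 8 comparisons the rule did not use, for the 150 genes (green) beside all genes tested (grey), in percent of those tested. Bars to the left are genes lower in ‘NCGR1363’ or in leaves and bars to the right genes higher there, and the widest gap between members and all genes is in crowns at 42 d, with 75.3% of members and 23.9% of all genes lower in ‘NCGR1363’ when the left-out library is set aside. Scaling is by TMM. On column totals the balance of the tissue calls in ‘NCGR1363’ turns, but the members' median there stays above that of all genes.

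The 4 genotype differences share no library. Of the 41 members called lower in leaves of ‘NCGR1363’ at 42 d, 38 were also called lower in crowns, which is 92.7% of the leaf calls and 33.6% of the 113 crown calls, and over all genes the shares were 77.9 and 25%. With the left-out library 3 members were called lower in crowns at 42 d, and 0 were called lower in both tissues at that time. In crowns, 78 members were called lower at both times, 91.8% of the 85 at 0 h and 69.0% of the 113 at 42 d, with 47.0 and 63.1% over all genes, and 2 members were with the left-out library. At 0 h, 10 members were called higher in leaves and lower in crowns of ‘NCGR1363’, 76.9% of the 13 leaf calls and 11.8% of the 85 crown calls, where the shares over all genes were 33.9 and 10%. These overlaps start from unlike bases. In crowns 75.3% of members and 23.9% of all genes were called lower at 42 d, and 58.2 and 32.2% at 0 h. No closer agreement of the members is therefore read from the overlaps. Of the 142 members tested in all 4 comparisons, 32 had lower values in ‘NCGR1363’ in each, or 22.5%, where 10.6% of all genes did, and 1 had higher values in each, or 0.704%, where 13.1% did. On column totals these counts were 30 and 1, where 8.5% of all genes had lower and 15.7% higher values in each. With the left-out library they were 30 and 2, where 10.7% of all genes had lower values in each. The members called in all 4, each lower in ‘NCGR1363’, were 4, or 2.82%, where 1.59% of all genes were.

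The tissue differences compare leaves with crowns within a genotype and time. In ‘Alta’, 51 members were called higher and 67 lower in leaves at 0 h (79.2% of 149 tested, where 73.1% of all genes were called, 36% higher and 37.1% lower), and 27 higher and 45 lower at 42 d (48.0% of 150, where 44.8% of all genes were called, 23.8% higher and 21.0% lower). In ‘NCGR1363’, 69 were higher and 35 lower in leaves at 0 h (69.8% of 149, where 65.7% were called, 33.1% higher and 32.6% lower), and 53 higher and 33 lower at 42 d (57.3% of 150, where 55.5% were called, 28.4% higher and 27.1% lower). The shares of members called were thus close to those of all genes in all 4. Called values ran from -10.40 to 7.53 in ‘Alta’ and from -5.43 to 6.09 in ‘NCGR1363’ at 0 h. At 42 d they ran from -5.29 to 4.95 and from -5.18 to 5.81. With the left-out library, edgeR called 0 members in ‘Alta’ at 42 d, 24 had an unadjusted p under 0.05 and DESeq2 called 18. Shares over all genes are not given beside these counts.

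The balance of these tissue calls depended on the scaling. Column totals in place of TMM moved the median over all genes by -0.68 in ‘Alta’ at 0 h, -0.62 in ‘NCGR1363’ at 0 h, -0.34 in ‘NCGR1363’ at 42 d and -0.08 in ‘Alta’ at 42 d. The splits of higher and lower in leaves then became 37 and 92, 50 and 58, 39 and 44, and 25 and 48. More members of ‘NCGR1363’ were then called lower than higher in leaves, and shares over all genes are not given for these splits. The members' median in ‘NCGR1363’ on column totals was -0.17 at 0 h and -0.12 at 42 d. Over all genes it was -0.66 and -0.34, so the members stayed above the median of all genes. With TMM the members' median was -0.17 at 0 h and -0.26 at 42 d in ‘Alta’ and 0.46 and 0.26 in ‘NCGR1363’. The medians of all genes with TMM were between -0.04 and 0.00. With the left-out library the members' median in ‘Alta’ at 42 d was 0.20, of the opposite sign. Of 148 members tested in all 4 tissue comparisons, 39 were higher in leaves in each (26.4%, against 29.0% of all genes) and 41 lower (27.7%, against 28.3%), close to the background. At 42 d, 23 members were called higher in leaves of both genotypes, 85.2% of the 27 calls in ‘Alta’ and 43.4% of the 53 in ‘NCGR1363’, and 24 lower in leaves of both, 53.3% of 45 and 72.7% of 33, where the shares over all genes were 81.1, 66.0, 77.7 and 61.9%. The member ranked 9 illustrates the leaf end, with mean CPM by column total at 42 d of 147 in crowns and 4275 in leaves of ‘Alta’ and 20.3 and 848 in ‘NCGR1363’, and the member ranked 10 the crown end, with 1555 and 37.5 in ‘Alta’ and 619 and 12.9 in ‘NCGR1363’. Both were chosen after their values were seen.

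The levels also ordered the groups. By group mean of log2(CPM + 0.5), 86 of the 150 members were highest in ‘Alta’ crowns at 42 d (57.3%, against 28.5% of the 11326 genes passing the minimum). Another 36 were highest in ‘Alta’ leaves (24%, against 14.9%), 18 in ‘NCGR1363’ leaves (12%, against 19.6%) and 10 in ‘NCGR1363’ crowns (6.67%, against 36.9%). With the left-out library these counts became 10, 79, 19 and 42, so that the place of ‘Alta’ crowns at 42 d rests on setting it aside. In the same order that is 6.67, 52.7, 12.7 and 28% of the members, against 8.6, 21.5, 19.8 and 50% of the genes passing the minimum. At 0 h, 85 were highest in ‘Alta’ crowns (56.7%, against 36.4%). The median over members of the gap between the highest and the lowest group was 1.92 at 0 h and 2.23 at 42 d on the log2 scale, against 1.17 and 1.01 over the genes passing the minimum. These orders rest on column totals and on groups that chose the genes, and have no test.

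By their IDs, the members were spread over the 7 chromosomes, with 12, 25, 21, 22, 16, 31 and 23 genes on chromosomes 1 to 7. The shares were between 8% on chromosome 1 (11.5% of the genes passing the minimum) and 20.7% on chromosome 6 (18.3%). In the order of IDs 6 members lay next to another member, as 3 pairs, and 1 pair joined the members ranked 9 and 11 and another the members ranked 2 and 104. The median coding length was 1170 bases, against 1296 over the genes passing the minimum, and 27 members (18%, against 12%) had fewer than 600 coding bases. A single annotated isoform was present for 89 members (59.3%, against 38.0%). These features are given as a description, and no coordinates or sequences were used.

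Isoform shares within a gene were a measure that the rule did not use. With edgeR's diffSpliceDGE on the isoform table, 9 of 53 members tested changed their isoform shares between 0 h and 42 d in ‘Alta’ crowns (17.0%, where 11.9% of all genes tested were called), 14 of 55 in ‘NCGR1363’ crowns (25.5%, where 18.5% were), 12 of 58 in ‘Alta’ leaves (20.7%, where 11.9% were) and 7 of 55 in ‘NCGR1363’ leaves (12.7%, where 9.12% were). Of 60 members tested in at least 1 of these, 26 were called in at least 1 (43.3%, where 31.1% of all genes were), and of 49 tested in all 4 there were 2 called in each (4.08%, where 1.64% were). With the Simes test over isoforms the counts were 3, 6, 6 and 3, and with the left-out library edgeR called 0 of 54 members in ‘Alta’ crowns, of which 10 had an unadjusted p under 0.05, and the Simes test 0. Shares over all genes are not given for these counts or for the fits below without 1 library. Leaving out 1 library gave 4 to 10, 5 to 13, 7 to 15 and 4 to 9, and the count fell by over 1.5 times without replicate 2 of ‘Alta’ crowns at 42 d (4), replicate 1 or 2 of ‘NCGR1363’ crowns at 42 d (9 and 5), replicate 1 of ‘Alta’ leaves at 42 d (7) and replicate 1 of ‘NCGR1363’ leaves at 42 d (4). On simulated libraries 18.4% of 206 calls were genes without a change when each isoform kept its own estimated spread, and 1.69% of 177 when the spread followed the trend, so that single calls are to be read with care. The member ranked 85, chosen after its values were seen, has 2 isoforms, t1 and t2, and t2 led at 42 d in all 4 cold responses. Its t2 made up 34.1% of the gene's counts at 0 h and 55.3% at 42 d in ‘Alta’ crowns (edgeR FDR = 0.00257), and 40.5 and 56.6% in ‘NCGR1363’ crowns (edgeR FDR = 0.00109). In leaves it made up 49.5 and 64.0% in ‘Alta’ (edgeR FDR = 0.0508) and 47.3 and 64.5% in ‘NCGR1363’ (edgeR FDR = 0.0398). The Simes test did not call it in any of the 4 (FDR of 0.172, 0.246, 0.686 and 0.865). In each of the 4 cold responses the lowest library at 42 d was above the highest at 0 h.

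The gene lists were drawn by keyword from the descriptions of the annotated QTL genes, with no evidence for each gene that it responds to cold. Other genes that the study names, among them another dehydrin, were not used here. The dehydrin list held 1 gene, a COR47-like dehydrin, which was under the filter on low counts. The list of CBF and abscisic acid regulators held 7 genes, among them ethylene-responsive factors and 2C protein phosphatases but none described as a CBF. Of these, 5 were tested, and 1 was higher and 2 lower at 42 d in ‘Alta’ crowns, 0 and 1 in ‘NCGR1363’ crowns, 3 and 1 in ‘Alta’ leaves and 2 and 1 in ‘NCGR1363’ leaves. Of the 2 SWEET1-like genes, which encode transporters that move sugars across membranes, 1 was tested and was higher at 42 d in ‘Alta’ crowns, ‘NCGR1363’ crowns and ‘Alta’ leaves, with log2 changes of 3.19, 1.48 and 1.68, and in ‘NCGR1363’ leaves it had 0.63, which did not pass the test. The list of 6 redox genes held 5 that are not members, of which 2 were higher and 2 lower in ‘Alta’ crowns, 1 and 2 in ‘NCGR1363’ crowns, 2 and 3 in ‘Alta’ leaves and 0 and 0 in ‘NCGR1363’ leaves. The sixth was the alcohol dehydrogenase FvH4_2g14760, whose cold response chose it. Among 7 chaperones, which help proteins to fold, 4 were tested, with 2 higher and 0 lower in ‘Alta’ crowns, 3 and 1 in ‘NCGR1363’ crowns, 2 and 0 in ‘Alta’ leaves and 1 and 0 in ‘NCGR1363’ leaves. Of 6 membrane and lipid genes, 4 were tested in crowns, with 0 higher and 3 lower in ‘Alta’ and 1 and 2 in ‘NCGR1363’, and 3 in leaves, with 0 and 2 in ‘Alta’ and 0 and 1 in ‘NCGR1363’. The 1 clock gene, described as GIGANTEA, was higher at 42 d in all 4, by 1.18, 0.44, 1.35 and 1.21 on the log2 scale. The 15 pathogenesis-related and cell wall genes gave 1 higher and 5 lower of 10 tested in ‘Alta’ crowns, 3 and 2 of 10 in ‘NCGR1363’ crowns, 4 and 3 of 9 in ‘Alta’ leaves and 2 and 1 of 9 in ‘NCGR1363’ leaves, and the 17 ubiquitin ligase genes 5 and 0, 5 and 1, 5 and 2, and 1 and 1 of 10 tested. The counts in ‘Alta’ crowns depended on the left-out library, since with it edgeR called 1 higher (the SWEET1-like gene, 3.11 on the log2 scale) and 1 lower (a pathogenesis-related or cell wall gene) of the 42 genes tested in these lists, the crown markers and the alcohol dehydrogenase included, and 10 had an unadjusted p under 0.05.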

How the data were processed

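After trimming reads from strand-specific libraries, the authors ran RSEM with Bowtie2 against predicted F. vesca transcripts and deposited tables of expected counts per gene (34006 genes) and per isoform, not normalized. The deposited estimated counts were whole numbers, so no rounding was needed. Titles and column names gave each library its group, although for 11 of the 12 libraries titled ‘NCGR1363’ the genotype tag in the labels gives another number. Tool versions of the mapping are not given in the sources used here.

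Fits used edgeR (version 4.0.16) in R 4.3.3, with TMM factors and the legacy quasi-likelihood F-test. A gene was tested where 2 or more libraries of the groups compared reached 0.5 CPM, p-values were adjusted by Benjamini-Hochberg across every gene tested, and the FDR limit was 0.05. SE is the size of the log2 difference divided by the square root of F. Alternatives were DESeq2 (version 1.42.0) and its size factors, no filter, 1 fit of all 8 groups, the replicate block, each library left out and, added after the data were seen, column totals without factors, lists and overlaps with the left-out library and the redox list without its member. The members and lists were chosen with earlier results of these data known. Genes named were to be the leading members by smallest change, by CPM at 42 d and by each difference, members of lists, and members with a description or named in the paper; of those without a description only the first by smallest change and the first by CPM are given by ID. The lists came from keywords in the descriptions of the QTL genes.

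Of 9 comparisons with 3 pairs of same-numbered libraries, 1 had every pair's r of the deviations above 0.1, the tissue difference of ‘NCGR1363’ at 42 d (0.11, 0.38 and 0.20 over genes), where the block gave 81 calls against 86. The labels do not say what links the numbers.

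On libraries simulated for 18314 genes in leaves at 0 h, 53% of 100 genes changed by 1 on the log2 scale and 91% of 100 changed by 2 were called, and 10 of 154 calls were unchanged genes. For 18959 genes in crowns at 42 d the values were 48%, 92% and 13 of 153. No other genes were changed in the simulated libraries, whereas 18.7 and 49.9% of all genes were called in the real comparisons. The FDR adjustment depends on the share of genes that change, so these rates are not carried over to the real fits.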

Additional observations from a re-analysis of the deposited data

Results flagged for a closer look

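For 3 of the genes given by ID, the libraries of 2 groups were separated in opposite directions, and in no case was the difference between the comparisons itself tested. FvH4_2g14760 was higher in ‘NCGR1363’ than in ‘Alta’ in untreated crowns, by 1.32 on the log2 scale, and lower in untreated leaves, by -0.84. FvH4_2g18090 showed the reverse at 0 h, with -1.34 in crowns and 0.88 in leaves, and its leaves were below the crowns in ‘Alta’ (-1.28) and above them in ‘NCGR1363’ (0.91). FvH4_2g12900 was lower in ‘NCGR1363’ in crowns at 42 d (-0.46) and had a higher value in its leaves at 42 d (0.40). Over all 150 genes, such opposite separation was seen for 25 in the genotype differences at 0 h and 10 at 42 d, and for 14 in the tissue differences at 0 h and 7 at 42 d, which is 16.7, 6.67, 9.33 and 4.67%. Over the 11326 genes passing the minimum the shares were 17.1, 3.95, 9.56 and 2.13%.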

How the results depend on the processing

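Of the 150 members, 79 were chosen again with a minimum CPM of 20 at 42 d, 85 with the left-out library, 123 with TMM factors, 105 with no minimum, and 145 and 148 with pseudocounts of 1 and 0.1. With the left-out library, the calls were 3 for the genotype difference in crowns at 42 d, 0 for the tissue difference in ‘Alta’ at 42 d, 26 for the cold response of ‘Alta’ crowns and 0 for isoform usage in ‘Alta’ crowns. The replicate block gave 1 call in place of 25 for the genotype difference in leaves at 0 h, and 1, 5 and 4 in place of 9, 12 and 7 for isoform usage in ‘Alta’ crowns, ‘Alta’ leaves and ‘NCGR1363’ leaves; all other counts with the block stayed within 1.5 times. With 1 fit of all 8 groups there were 76 calls in place of 46 for leaves at 42 d, and the Simes test 3, 6, 6 and 3 for isoforms. Without 1 library at a time, counts ran from 7 to 59 and from 11 to 80 for the genotype differences in leaves at 0 h and 42 d, and for isoform usage from 4 to 10, 5 to 13, 7 to 15 and 4 to 9. The cause of these shifts was not tested, except that fewer libraries enter each fit without 1. Shares over all genes are not given beside these counts, so the shifts are not read as a trait of the members. No called difference of a gene given by ID changed sign in the alternatives run. Pairs of same-numbered libraries in leaves at 0 h had r of -0.51, -0.34 and -0.22. The p-values measure the spread between 2 or 3 replicates of 1 accession.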
